A study of Mus musculus with 2 samples.

Results

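The NKG2 and NKR-P1 receptors are C-type lectin-like proteins on natural killer (NK) cells, and 10 of their genes, Klrb1a, Klrb1b, Klrb1c, Klrb1f, Klrc1, Klrd1, Klre1, Klrg1, Klri2 and Klrk1, were taken by symbol from a spleen RNA sequencing table of 22216 gene rows. All 10 were present, and all reached the level for keeping a gene, an RPKM (reads per length of gene and per size of library) of 1 in either library. Mice of genotype NOD.L7 were compared with mice of genotype NOD.g7. Both are forms of the non-obese diabetic (NOD) mouse, an inbred strain that develops autoimmune diabetes, and the labels give no age, sex or treatment and do not say what L7 or g7 stands for. Each genotype was 1 library made from the pooled spleens of 3 mice, so there were no replicates, the spread between mice was not measured, no p-value could be given and every value is a single measurement. The strict NKG2 genes here are Klrc1 and Klrk1 and the NKR-P1 genes are the Klrb1 genes. The others are lectin-like receptors of the same gene complex or of its neighbourhood.

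NK cells kill on a balance of inhibitory and activating receptors. Inhibitory receptors carry tyrosine motifs that recruit phosphatases, while activating receptors borrow the signalling of adaptor proteins such as those encoded by Tyrobp, Hcst and Fcer1g. The CD94 protein pairs with NKG2 proteins to read the non-classical MHC molecule Qa-1, NKG2D reads stress-induced ligands, and NKR-P1 receptors read Clr proteins encoded by Clec2 genes that lie among the receptor genes themselves. In the spleen these receptors are found mainly on NK cells, and Klrk1, Klrc1, Klrd1 and Klrg1 also on activated or memory CD8 T cells.

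All 10 receptor genes were lower in the NOD.L7 library than in the NOD.g7 library, by 1.34-fold to 2.33-fold. The background for a gene to be lower at all was 43.8% of the 11141 kept genes. On the log2(RPKM + 1) scale, which understates the change of low genes, 8 of the 10 were at least 1.5-fold lower, where 1.16% of kept genes were, and their median log2 ratio was -0.69 against 0.02 over all kept genes. None reached the size rule of an absolute log2 ratio of 1, which 0.709% of kept genes passed in either direction and 0.323% as lower genes. Among the 6673 kept genes whose mean RPKM lay within the range of the members (2.23 to 22.3), 41.9% were lower at all and 1.17% at least 1.5-fold lower on that scale. The 10 values summed to an RPKM of 48.6 in NOD.L7 and 84.4 in NOD.g7. In whole spleen, fewer cells of a type and less RNA per cell cannot be told apart.

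**Figure D1:**
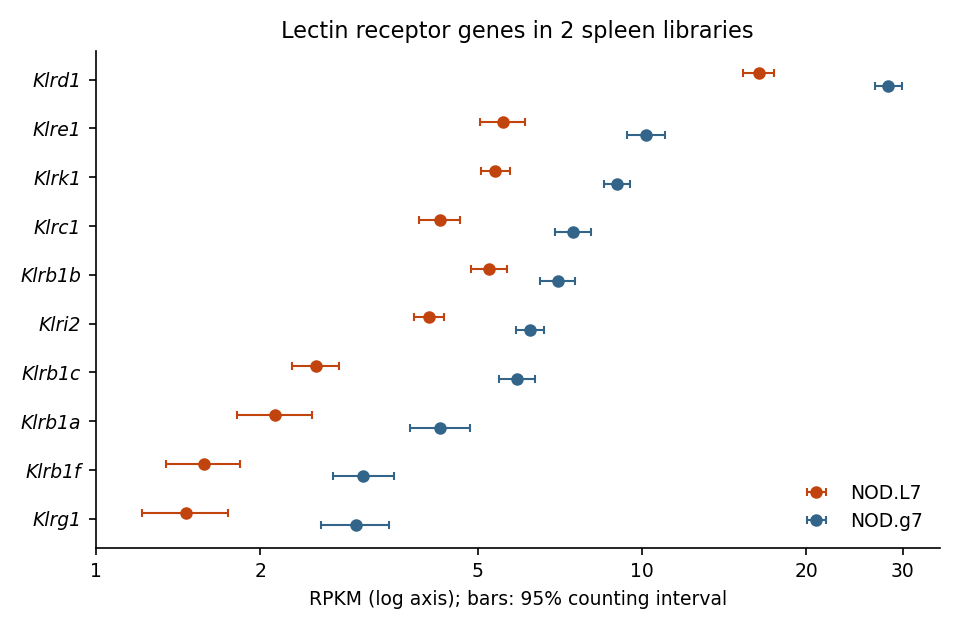
RPKM (log axis) of the 10 receptor genes in the NOD.L7 library (orange) and the NOD.g7 library (blue), 1 library each, with bars for the 95% counting interval, which leaves out the variation between mice. Every NOD.L7 point lies left of its NOD.g7 point, and Klrd1 is the highest gene in both, at 16.3 and 28.2.

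The RPKM values order the genes per length, and the intervals named here use the longest transcript. Klrd1 stood highest in both libraries and its counting interval was clear of the next gene, Klre1. At the low end Klrb1f and Klrg1 had overlapping counting intervals in both. The order was otherwise shared by the libraries except that Klrb1b stood above Klrc1 in NOD.L7 and below it in NOD.g7, where their intervals overlapped. The members rested on about 125 to 1041 fragments in NOD.L7 and 193 to 1311 in NOD.g7, worked out from the depth, a transcript length and 200 bases per fragment.

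Klrd1 encodes CD94, the shared partner chain of the NKG2 proteins. It was at an RPKM of 16.3 in NOD.L7 and 28.2 in NOD.g7, a fold of 0.579 (95% counting interval 0.53 to 0.632). Klrc1, which encodes the inhibitory partner NKG2A, was at 4.26 in NOD.L7 and 7.49 in NOD.g7, a fold of 0.569 (0.506 to 0.639). The neighbouring Klrc2 and Klrc3, which encode the activating partners NKG2C and NKG2E, were lower too, Klrc2 at 2.11 in NOD.L7 and 3.46 in NOD.g7 and Klrc3 at 1.67 and 3.32. Both chains of the heterodimer were thus lower to much the same degree. The RPKM of Klrd1 was 2.03 times the sum of the 3 Klrc genes in NOD.L7 and 1.98 times in NOD.g7. Klrc1 made up 53.0% of that sum in NOD.L7 and 52.5% in NOD.g7, so the inhibitory share within the NKG2 partners of CD94 was close in the 2 libraries.

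The Klrc genes resemble each other, which limits how reads can be assigned to them. Of all 50-base windows of the longest Klrc1 protein-coding transcript in GENCODE M21, 59.7% were found in no other gene's transcript, and Klrc2 shared 38.1% of them. The sum of the 3 genes, which is less open to such exchange, was 8.04 in NOD.L7 and 14.3 in NOD.g7, a fold of 0.563. For 5 members every window was unique, namely Klrb1f, Klrd1, Klre1, Klrg1 and Klrk1. Their folds were 0.488 to 0.6.

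Klrk1 encodes NKG2D, an activating receptor that forms a homodimer and signals through DAP10, the product of Hcst. It was at 5.39 in NOD.L7 and 8.99 in NOD.g7, a fold of 0.6 (0.552 to 0.651). Its RPKM was 1.27 times that of Klrc1 in NOD.L7 and 1.2 times in NOD.g7. The activating NKG2D gene and the inhibitory NKG2A gene were therefore lower side by side.

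The NKR-P1 genes differed most among themselves. Klrb1c, which encodes the activating receptor NKR-P1C, was at 2.53 in NOD.L7 and 5.91 in NOD.g7, a fold of 0.429 (0.378 to 0.485). It had the lowest fold of the 10. Klrb1a, for the activating receptor NKR-P1A, was at 2.13 in NOD.L7 and 4.27 in NOD.g7, a fold of 0.499 (0.407 to 0.61), and Klrb1f, for the activating NKR-P1F, was at 1.58 and 3.09, a fold of 0.51 (0.415 to 0.625). Klrb1b, which encodes the inhibitory receptor of this group, was at 5.25 in NOD.L7 and 7.02 in NOD.g7, a fold of 0.748 (0.673 to 0.831), the smallest difference of the 10.

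The make-up of the NKR-P1 group was therefore unlike in the 2 libraries. Klrb1b accounted for 45.7% of the summed RPKM of the 4 Klrb1 genes in NOD.L7 and 34.6% in NOD.g7. Klrb1c accounted for 22.1% in NOD.L7 and 29.1% in NOD.g7. Klrb1a and Klrb1f held 18.6% and 13.7% in NOD.L7, against 21.1% and 15.2% in NOD.g7. Of the 45 pairs of members 12 had counting intervals of the fold that did not overlap when fragments were worked out from the longest transcript, 8 of them with Klrb1b. With the shortest protein-coding transcript of at least 500 bases, chosen after the data were seen, 5 pairs were apart, namely Klrb1b with Klrb1c, Klrb1f, Klre1 and Klrg1, and Klrb1c with Klri2. These intervals cover counting error only. The share of such pairs among all kept genes was not worked out. The pair counts therefore do not mark these genes out from others. Of 50-base windows 71% were unique to Klrb1b, 81.9% to Klrb1c and 89% to Klrb1a. The gene sharing most of their windows was Gm44511, with 27.1% for Klrb1b, 13.9% for Klrb1c and 6.2% for Klrb1a. Next came Klrb1c for both Klrb1b and Klrb1a, and Klrb1a for Klrb1c, so some windows are shared within the NKR-P1 group. The sources do not state how reads from shared windows were assigned. The reference genome is that of C57BL/6 mice, and sequence variants of the NOD alleles were not analysed here.

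**Figure D2:**
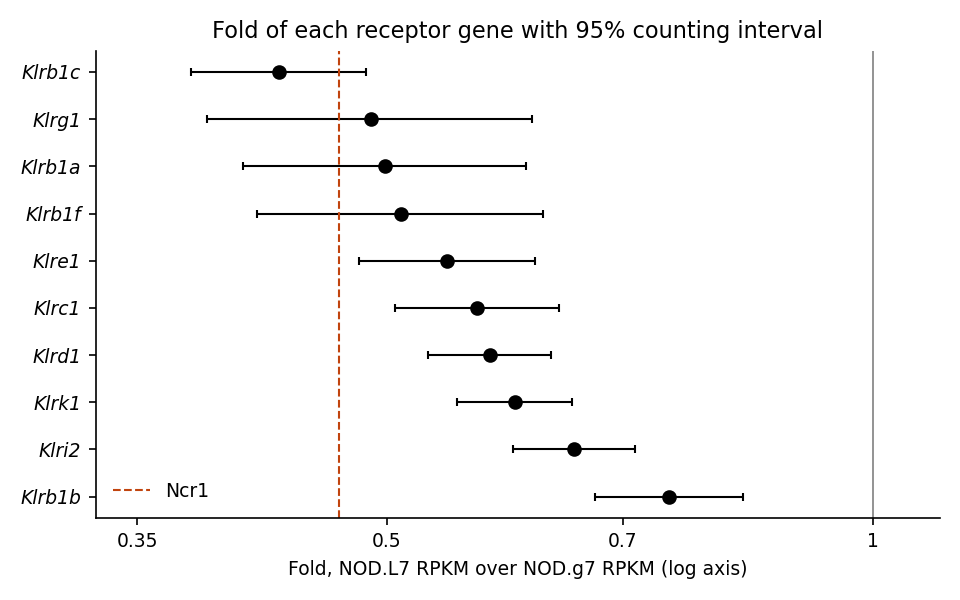
Fold of each receptor gene, NOD.L7 RPKM over NOD.g7 RPKM (log axis), with its 95% counting interval. The dashed line is the fold of the NK cell gene Ncr1, 0.467, and the grey line marks equal levels. The folds run from Klrb1c at 0.429 to Klrb1b at 0.748. All 10 intervals lie below 1, as do those of 19.5% of the 9765 kept genes for which one could be computed.

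The promoters of 3 NKR-P1 genes are shown because these neighbours had the lowest and the highest fold of the 10 and Klrb1a the promoter most like that of Klrb1c. Each is the 250 bases before the RefSeq start on GRCm38.p6, all on the minus strand, 5′ to 3′, at chr6:128788642-128788891 for Klrb1c, chr6:128622935-128623184 for Klrb1a and chr6:128826316-128826565 for Klrb1b. Capitals mark TGTGGT, the core bound by Runx factors, and ACTTCC, a core bound by Ets factors, on either strand (ACCACA and GGAAGT on the other).

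Klrb1c: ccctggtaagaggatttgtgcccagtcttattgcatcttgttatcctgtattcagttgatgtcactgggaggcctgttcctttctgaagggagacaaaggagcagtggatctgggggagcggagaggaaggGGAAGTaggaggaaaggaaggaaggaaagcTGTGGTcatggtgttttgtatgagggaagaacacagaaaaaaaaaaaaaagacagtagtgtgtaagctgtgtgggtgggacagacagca
Klrb1a: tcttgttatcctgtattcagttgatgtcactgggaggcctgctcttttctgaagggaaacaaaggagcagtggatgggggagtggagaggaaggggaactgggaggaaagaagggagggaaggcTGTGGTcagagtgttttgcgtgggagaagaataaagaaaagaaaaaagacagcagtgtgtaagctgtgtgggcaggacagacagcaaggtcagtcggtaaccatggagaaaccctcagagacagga
Klrb1b: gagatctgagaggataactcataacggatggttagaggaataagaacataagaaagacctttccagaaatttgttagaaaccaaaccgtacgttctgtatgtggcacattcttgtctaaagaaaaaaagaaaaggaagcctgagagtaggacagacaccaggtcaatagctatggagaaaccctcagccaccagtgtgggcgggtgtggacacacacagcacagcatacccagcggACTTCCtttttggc

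After global alignment the Klrb1c and Klrb1a promoters were identical at 188 of 250 bases (75.2%), while the other pairs among the 7 members with a RefSeq promoter were at 45.6% to 60.4%. The pair with the alike promoters had the folds 0.429 and 0.499. The next most alike pair, Klrb1b and Klrb1f at 60.4%, had the folds 0.748 and 0.51. Klrb1a and Klrb1f, at 50.4%, had the folds 0.499 and 0.51. A link between promoter likeness and fold was not tested. TGTGGT was in 5 of the 7 promoters (Klrb1a, Klrb1c, Klrc1, Klre1 and Klrk1), against 14.05% of 32851 RefSeq promoters of this length, and ACTTCC in 3 of 7 (Klrb1b, Klrb1c and Klrb1f), against 19.74%. A half-site of T-box factors, TCACACC, was in 0 of the 7 windows and in 3.33% of all, and no motif overlapped with another in these windows. The motifs were chosen with the values known, and a match of letters is not a binding site.

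Klre1 and Klri2 encode chains that, in the rat, pair with each other as an activating receptor, while the related Klri1 gives the inhibitory pair. Klre1 was at 5.55 in NOD.L7 and 10.2 in NOD.g7, a fold of 0.545 (0.481 to 0.618). Klri2 was at 4.07 in NOD.L7 and 6.24 in NOD.g7, a fold of 0.653 (0.599 to 0.713). Klri1, which is not one of the 10, was at 4.87 in NOD.L7 and 5.39 in NOD.g7, a fold of 0.903 whose counting interval, 0.747 to 1.09, includes 1. The summed RPKM of Klri1 and Klri2 was 1.61 times that of Klre1 in NOD.L7 and 1.14 times in NOD.g7, so the shared chain was further below in NOD.L7 than its partners. Of the other lectin receptor genes of these families in the table, Klrg2, Klrb1 (listed as 4930431A04Rik) and Klrh1 (listed as Gm156) stayed under an RPKM of 1 in both libraries.

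Klrg1 encodes an inhibitory receptor for cadherins that marks mature NK cells and effector CD8 T cells. It was at 1.46 in NOD.L7 and 2.99 in NOD.g7, a fold of 0.488 (0.387 to 0.615). It was the lowest of the 10 genes in level and, in fold, next to Klrb1c. Klrg1 lies 6.34 Mb from Klrb1a, apart from the cluster that holds the other 9 members.

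The other 9 genes lie within 1.13 Mb of chromosome 6 (128559245 to 129690502 in the table's mm9 coordinates), together with genes of other cell types, which allows a comparison along the chromosome. The stretch held 32 gene rows. All 12 kept lectin receptors of the Klrb, Klrc, Klrd, Klre, Klri and Klrk families in it were lower in NOD.L7, and their log2 ratios had a median of -0.68. The 11 other kept genes had a median of -0.08, with 8 lower and 3 higher. Between the NKR-P1 and the NKG2 genes, the lymphocyte activation gene Cd69 was at an RPKM of 27.9 in NOD.L7 and 29.0 in NOD.g7, and Gabarapl1, an autophagy gene next to Klre1, was at 7.61 and 7.53. Clec7a, the myeloid beta-glucan receptor gene, was higher, at 23.3 in NOD.L7 and 15.3 in NOD.g7. At least 1.5-fold lower on the log2(RPKM + 1) scale among these neighbours were Clec2i, described with the ligands, and BC064078, at 1.85 in NOD.L7 and 4.45 in NOD.g7.

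**Figure D3:**
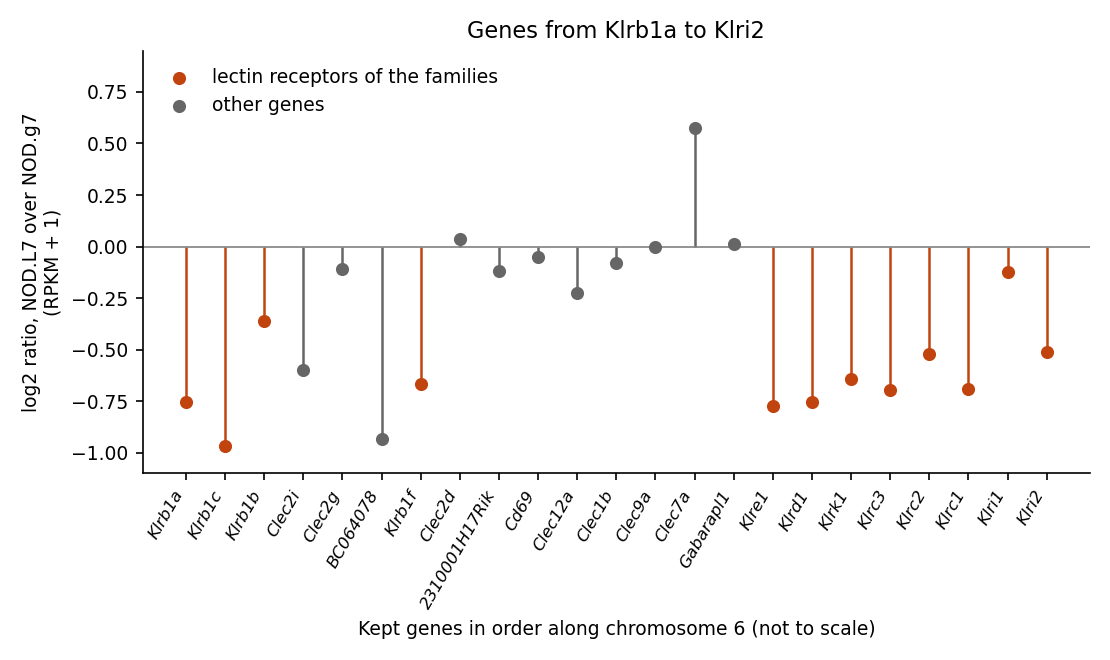
Log2 ratio of NOD.L7 over NOD.g7 (RPKM + 1) for the kept genes from Klrb1a to Klri2, in their order along chromosome 6 and not to scale. Orange points are lectin receptors of the families, all below 0, with Klri1 the nearest to it at -0.12. Grey points are other genes, which lie from -0.22 to 0.04 except Clec2i and BC064078 below and Clec7a above.

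Genes of NK cells outside the lectin families gave a mixed picture. Of 25 kept genes 19 were lower and 6 higher in NOD.L7, the median log2 ratio being -0.18, and 6 were at least 1.5-fold lower on that scale. Ncr1, the NK cell receptor gene for NKp46, was at 11.6 in NOD.L7 and 24.9 in NOD.g7, and Eomes, a T-box factor of NK cell development, was at 6.35 and 12.6. Gzma (granzyme A) was at 26.3 in NOD.L7 and 79.9 in NOD.g7, S1pr5, a receptor for exit of NK cells from tissues, was at 4.11 and 8.18, and the granule gene Nkg7 was at 44.5 and 75.1. With folds of 0.329 to 0.593, these 5 genes lay within the range of the lectin receptors or below it.

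Other genes of that list were closer between the libraries than those genes. Some of them still lay within the range of the lectin receptors. Il2rb, a chain of the interleukin-2 and interleukin-15 receptors, was at 52.6 in NOD.L7 and 59.1 in NOD.g7. Tbx21 was at 6.78 in NOD.L7 and 9.81 in NOD.g7, Prf1 (perforin) at 16.4 and 23.4, and Cd160 at 2.42 and 2.88. Within the range of the lectin receptors were the folds of Tbx21 (0.691), Prf1 (0.701), Ccl5 (0.646) and Ctsw (0.672). Cd244, an NK receptor of the SLAM family, was higher, at 13.7 in NOD.L7 and 9.91 in NOD.g7.

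Set against Ncr1 within each library, the members ran from a ratio close to that in the other library to one well above it. The RPKM of Klrb1c was 0.217 times that of Ncr1 in NOD.L7 and 0.237 times in NOD.g7, so Klrb1c was slightly further below than Ncr1. The ratios to Ncr1 of the other 9 members were higher in NOD.L7. They differed by 1.05-fold for Klrg1, 1.07-fold for Klrb1a, 1.09-fold for Klrb1f, 1.17-fold for Klre1, 1.22-fold for Klrc1, 1.24-fold for Klrd1, 1.28-fold for Klrk1 and 1.4-fold for Klri2. At the end of this run, Klrb1b was 0.451 times Ncr1 in NOD.L7 and 0.281 times in NOD.g7, a 1.6-fold difference. The counting interval of the fold of Ncr1, 0.432 to 0.505, overlapped those of Klrb1c, Klrg1, Klrb1a, Klrb1f and Klre1 with the longest transcript. For these genes the order against Ncr1 is therefore not settled even by counting.

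CD8 T cells are a further source of some of these transcripts, and their genes moved the same way. Cd8a was at 31.7 in NOD.L7 and 53.7 in NOD.g7, and Cd8b1 at 54.9 and 81.8, so both kept CD8 genes were lower, with a summed RPKM of 86.6 in NOD.L7 and 135 in NOD.g7. The 9 pan-T cell genes had a median log2 ratio of 0.10, with 6 higher and 3 lower, and summed to 960 in NOD.L7 and 915 in NOD.g7. The 7 genes listed for NKT cells, innate-like T cells and innate lymphoid cells had a median of 0.02, with 4 higher and 3 lower. They summed to 102 in NOD.L7 and 103 in NOD.g7, but Il7r alone was at 57.6 and 57.8, so the sum mostly follows that gene. Nothing here shows that these genes are limited to those cells. Among markers of the remaining spleen cells, B cell genes (median log2 ratio -0.27, 8 of 9 lower) and erythroid genes (-1.46, 6 of 6 lower) were lower in NOD.L7, while neutrophil (0.68, 6 of 6 higher), dendritic cell (0.38, 4 of 6 higher) and germinal centre genes (0.73, 6 of 6 higher) were higher. The part of NK and CD8 T cells, or of these other cells, in the difference of the receptor genes was not tested.

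The Ly49 receptors, encoded by the Klra genes next to Klri2, are the other lectin receptor family of the complex. Of 14 kept Klra genes 12 were lower, with a median log2 ratio of -0.79, from Klra10 at 1.45 in NOD.L7 and 4.17 in NOD.g7 to Klra17, which was higher, at 18.7 in NOD.L7 and 12.2 in NOD.g7. The Klra genes are close relatives, so their single values are uncertain, and the share of their transcripts that is unique was not measured here. Without a filter on low values the median over all 18 Klra genes in the table was -0.61.

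**Figure D4:**
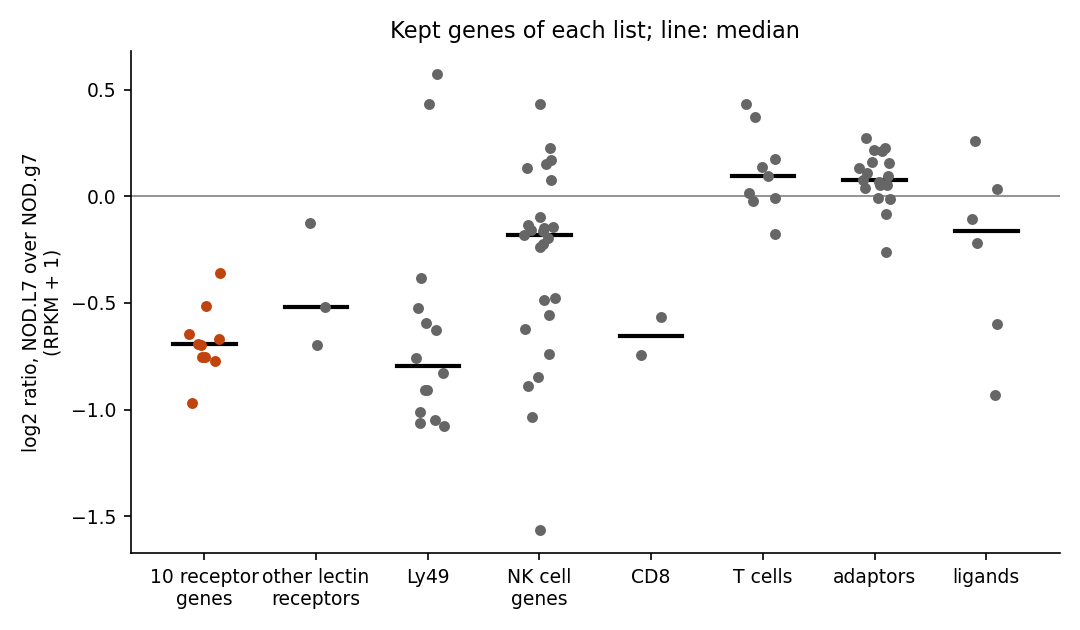
Log2 ratio of NOD.L7 over NOD.g7 (RPKM + 1) for kept genes of each list, 1 point per gene, with a line at the median. The 10 receptor genes (orange, median -0.69) lie below 0, as do the CD8 genes and 12 of 14 Ly49 genes, while the T cell (median 0.10) and adaptor (0.08) genes lie around 0.

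The adaptors and signalling partners of these receptors were not lower as a group. Of 19 kept genes 15 were higher and 4 lower in NOD.L7, the median log2 ratio being 0.08, and none was 1.5-fold different on that scale. Hcst, which encodes the NKG2D adaptor DAP10, had the lowest ratio, at 22.1 in NOD.L7 and 26.6 in NOD.g7, a fold of 0.829 (0.737 to 0.934). Tyrobp (DAP12), which myeloid cells also express, was at 202 in NOD.L7 and 174 in NOD.g7, and Fcer1g, the adaptor of activating NKR-P1 receptors, at 73.2 and 67.9. Ptpn6, which encodes the phosphatase SHP-1 recruited by inhibitory receptors, was at 314 in NOD.L7 and 317 in NOD.g7. Monocyte and macrophage genes, the markers of a cell type that also holds Tyrobp and Fcer1g, were higher in 9 of 9 cases, and summed to 1081 in NOD.L7 and 897 in NOD.g7. Their part in the adaptor values was not tested.

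Of the ligand genes, 6 were kept, and 4 of these were lower and 2 higher in NOD.L7, the median log2 ratio being -0.16. That median moved to -0.01 without a filter on low values and to -0.41 with a filter at an RPKM of 5. H60b on chromosome 10, which encodes a ligand of NKG2D, was at 7.51 in NOD.L7 and 15.2 in NOD.g7, a fold of 0.494 (0.44 to 0.554), so receptor and ligand genes were both lower. The remaining NKG2D ligand genes in the table, Raet1a, Raet1b, Raet1d, Raet1e and H60c, were at or near 0 in both libraries. Of these, H60c was highest in NOD.L7, at 0.0176, and Raet1d in NOD.g7, at 0.0762. H2-T23, the gene for Qa-1, which CD94 with NKG2A reads, was at 61.3 in NOD.L7 and 71.5 in NOD.g7. Clec2d, which encodes Clr-b, the ligand of the inhibitory Klrb1b product, was at 87.0 in NOD.L7 and 84.8 in NOD.g7, a fold of 1.03 (0.988 to 1.07). Clec2i, which encodes Clr-g, a ligand of NKR-P1F, was at 29.9 in NOD.L7 and 45.8 in NOD.g7, a fold of 0.653 (0.626 to 0.68), and Klrb1f and Clec2i were thus both lower. Clec2g, also kept, was at 1.06 in NOD.L7 and 1.22 in NOD.g7. Its fold of 0.869 had a counting interval, 0.687 to 1.1, that includes 1. A link between receptor and ligand levels was not tested. Cdh1, the gene of E-cadherin, which the Klrg1 product binds, was at 2.63 in NOD.L7 and 2.03 in NOD.g7, a fold of 1.29 (1.14 to 1.46).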

How the data were processed

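Spleen RNA was sequenced from 1 library per genotype, after column extraction and a TruSeq RNA kit per the labels. The authors deposited 1 table of RPKM values for 22216 gene rows. By their names, column NOD.LC7 was read as genotype NOD.L7 and column NOD as genotype NOD.g7. Per the submitters' processing notes, CASAVA 1.8.2, SAMtools 0.1.18 and the mm9 build were used. The sources used here do not state the gene models, the strandedness or the handling of multiply mapped reads, so levels of genes with close relatives are uncertain.

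Steps in the low RPKM values of single-exon genes under 2500 bases (95 values in NOD.L7, 80 in NOD.g7, 100% within 0.15 of a whole number) gave 12.1 Gb of mapped sequence for NOD.L7 and 9.13 Gb for NOD.g7. Fragments per gene were taken as RPKM times this depth and the longest GENCODE M21 protein-coding transcript, at 200 bases a fragment, and the 95% interval of a fold is the exact binomial (Clopper-Pearson) interval, which covers counting error only. Level intervals are exact Poisson. Log2 ratios used a pseudocount of 1, and genes at an RPKM of 1 or more in either library were kept. Named genes were all members, the adaptor and ligand genes, 8 NK genes fixed by name plus the 4 with the largest ratio, and kept genes of the stretch. BC064078, Cd69, Gabarapl1 and Clec7a were picked from these with their values seen. Ccl5, Ctsw and Il7r were also named with their values seen. Older symbols added 4 matches. The members, lists and motifs were chosen with earlier results of these data known. Other settings tried were a pseudocount of 0.1 or 0.5, leaving out the filter, a filter at 5, median centring, a TMM factor on the RPKM values, 100 bases a fragment and shorter transcripts. Depth and interval calculations were tested on simulated data. Python 3.11.15, pandas 2.3.3, scipy 1.17.1 and Biopython 1.88 were used.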

Additional observations from a re-analysis of the deposited data

How the results depend on the processing

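No paired analysis was possible because NOD.L7 and NOD.g7 have a single library each. For the same reason no replicate was dropped in turn, and the settings below do not touch the variation between mice. All members kept were lower in NOD.L7 under each of the 6 settings of pseudocount, filter and scaling. This direction could not have changed, so it is no check of the result. A pseudocount or a filter leaves the sign of a ratio as it is. Median centring took off 0.0163 and the TMM factor was 1.014, too little to turn even Klrb1b at -0.36. Klrb1c passed the size rule at a pseudocount of 0.1 (log2 ratio -1.19) and of 0.5 (-1.08), so 1 member passed in each against 0 with 1. With a filter at an RPKM of 5 only 7 members were kept, and 5 were at least 1.5-fold lower, where 60 of the 8421 genes kept at that filter were. Over all genes, 166 passed the size rule at a pseudocount of 0.1, 124 at 0.5 and 52 at the filter of 5, against 79, and 200 (pseudocount 0.1) and 60 (filter 5) were at least 1.5-fold lower, against 129; smaller pseudocounts admit more low genes and the filter tests fewer by construction. The Ly49 median, -0.79 as reported, was -1.17 at a pseudocount of 0.1, -1.05 at the filter of 5 and -0.61 with no filter, and the ligand median, -0.16 as reported, was -0.41 at the filter of 5 and -0.01 with no filter. Member pairs with counting intervals apart numbered 12 as reported, 17 with 100 bases a fragment and 5 with the shortest protein-coding transcript of at least 500 bases, which gives fewer fragments by construction. These pair counts were added after the data were seen, and the share of such pairs among all kept genes was not worked out. The upper bound of each member's interval was below 1 under both, where 19.5% of kept genes had one below 1 as reported. Which members had the least precise folds depended on the transcript length, Klrg1 and Klrb1f with the longest and Klrb1a and Klrb1c with the shortest.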
